A study of Homo sapiens with 12 samples.

Results

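The insulin-like growth factor (IGF) system was followed in 10 genes of the 65975 gene identifiers in the expression table: the receptors IGF1R and IGF2R, the adaptor IRS1, the binding proteins IGFBP2, IGFBP3, IGFBP4, IGFBP5, IGFBP6 and IGFBP7, and the protease PAPPA. All but PAPPA were taken for their place in the system, though with earlier results of these data known. PAPPA was added because its change upon KDM3A depletion differed between the cell lines. The levels of PAPPA in these same libraries thus chose it, and they are given as a description with no test. All 10 genes had a row of their own, and all 10 reached 1 FPKM in at least 1 group.

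The libraries came from 4 groups of 3. RD is a patient-derived line of fusion-negative rhabdomyosarcoma (FN-RMS) that carries an activating Ras mutation, and Rh30 is a line of fusion-positive rhabdomyosarcoma (FP-RMS), the subtype driven by fusions of PAX3 or PAX7 with FOXO1. Cells of each line were stably transduced by lentivirus and selected in puromycin, and carried either a Scramble shRNA as control or KDM3A-sh2, a single shRNA against the histone demethylase KDM3A. The comparison addressed which transcripts change with KDM3A depletion in each subtype. With 1 shRNA against KDM3A, an effect of KDM3A loss and an effect of that shRNA on other transcripts cannot be told apart. With 1 line per subtype, and RD grown in DMEM but Rh30 in RPMI, the subtype, the line and the medium cannot be told apart. Whether the 3 libraries of a group were grown as separate cultures is not given in the sources used here, and p-values therefore measure only how these libraries vary, which may be technical. The column names of the 3 Rh30 Scramble libraries all end in 1, while those of each other group end in numbers from 1 to 3. What this stands for is not given.

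IGF1 and IGF2 signal through IGF1R, a receptor tyrosine kinase whose signal is passed on by IRS1 to the PI3K/AKT and MAPK pathways. IGF2R binds IGF2 at the cell surface and takes it to the lysosome without such a signal. The IGFBPs are secreted proteins that hold IGFs away from the receptor or carry them, and PAPPA is a secreted metalloproteinase that cuts IGFBP4, and also IGFBP2 and IGFBP5, and so sets bound IGF free. Rhabdomyosarcoma is known for strong IGF2 expression and for its use of IGF1R.

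Expression was measured as FPKM, the fragments of a gene scaled to its exon length and the depth of its library, so levels of different genes are comparable per length. KDM3A itself stood at 33.5 ± 2.5 FPKM in RD Scramble and 12.2 ± 1.09 with KDM3A-sh2, and at 29.7 ± 2.14 and 14.1 ± 1.15 FPKM in the Rh30 groups (mean ± SD, n = 3 in each). Summed FPKM per library ran from 1196850 to 1377720 and 17459 to 17970 genes had at least 1 FPKM. FPKM do not hold the number of reads, and the spacing of the lowest values gave a depth between 0.866 and 1.17 of the median library, lower with KDM3A-sh2 in both lines. Of 7 skeletal muscle markers 6 were expressed, with a summed level of 2542 to 3316 FPKM in every library, and MYF5 stayed under 1 FPKM in all 12. Markers of FP-RMS (TFAP2B, CDH3, OLIG2 and PAX3) summed to 79.5 to 120.4 FPKM in the Rh30 libraries and to 7.35 to 17.5 FPKM in the RD libraries. In RD the sum was nearly all PAX3, and TFAP2B, CDH3 and OLIG2 were under 1 FPKM. Mean PAX3 was 16.1 FPKM in RD Scramble and 8.16 in RD KDM3A-sh2, and 55.5 and 76.8 in the same groups of Rh30. Endothelial, blood and epithelial markers summed to at most 4.75, 1.05 and 7.74 FPKM. In bulk RNA a lower level in every cell and fewer cells of a kind that expresses a gene cannot be told apart.

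The promoters of IGFBP4 and PAPPA are shown because these genes had the largest changes among the 10, IGFBP4 downward in RD and PAPPA in opposite directions in the 2 lines. The sequences are RefSeq's (GRCh38.p14), the 250 bases upstream of the start of transcription, 5′ to 3′ on the plus strand, with CG dinucleotides in capitals. The IGFBP4 stretch lies at chr17:40443200-40443449 and the PAPPA stretch at chr9:116153541-116153790.
IGFBP4: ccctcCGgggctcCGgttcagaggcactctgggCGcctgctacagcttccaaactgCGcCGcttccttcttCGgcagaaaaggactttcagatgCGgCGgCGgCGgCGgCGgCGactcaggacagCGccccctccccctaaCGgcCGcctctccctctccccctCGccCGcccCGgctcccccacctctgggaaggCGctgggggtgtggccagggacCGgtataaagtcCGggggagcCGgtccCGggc
PAPPA: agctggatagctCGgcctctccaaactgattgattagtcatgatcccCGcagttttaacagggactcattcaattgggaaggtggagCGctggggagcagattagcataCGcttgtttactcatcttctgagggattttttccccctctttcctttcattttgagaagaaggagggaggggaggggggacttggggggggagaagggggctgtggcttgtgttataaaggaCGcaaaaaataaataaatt
The IGFBP4 stretch holds 24 CG dinucleotides and the PAPPA stretch holds 5. Over the full window of 300 bases, which adds 50 bases after the start, the counts were 30 and 6, against a median of 14 and quartiles of 4 and 28 over 35116 RefSeq windows. A match to the table was found for 9 of the 10 genes, all but IGFBP7. IGF1R (55), IRS1 (47), IGF2R (41) and IGFBP3 (36) had CG counts above the upper quartile, and IGFBP6 (12) and IGFBP5 (9) were below the median. IGFBP2 has 3 listed starts with 8, 28 and 6 CG dinucleotides. The word CCGGAA, read on both strands, is part of many binding sites of ETS factors, the family of Ets1. It occurred in the windows of IGF2R, IRS1, IGFBP3, IGFBP5 and IGFBP6, or 5 of 9, and in 17.2% of all windows. A match of letters is a description and not a binding site.

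In RD cells all of the binding proteins IGFBP2 to IGFBP7 changed with KDM3A-sh2, some up and some down. IGFBP3, IGFBP6, IGFBP7 and IGF2R rose, and IGFBP2, IGFBP4 and IGFBP5 fell. Without PAPPA, 7 of the 9 genes tested passed an adjusted p of 0.05 in limma (4 higher and 3 lower), where 41.1% of all 17986 genes tested were called (21.6% higher and 19.5% lower). Of the 9 tested, 7 had no overlap between groups, the same 7 that were called, against 53.4% of all genes. In Rh30 cells IGFBP2, IGF2R and IRS1 fell, and none of the other 4 genes tested was called. IGFBP3 and IGFBP7 were not tested there. Of the 7 genes tested there 3 were called, against 28.4% of 17796 genes (15.3% higher and 13.2% lower), and 6 had no overlap between groups, against 45.8%. The called share of all genes in Rh30 was 18.1% when the library of KDM3A-sh2 replicate 1 was left out. Tests were run on log2(FPKM + 1) over the genes whose mean reached 1 FPKM. An exact permutation test of 3 libraries against 3 cannot go below 0.1, so single genes were judged by the model fitted across all genes.

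**Figure D1:**
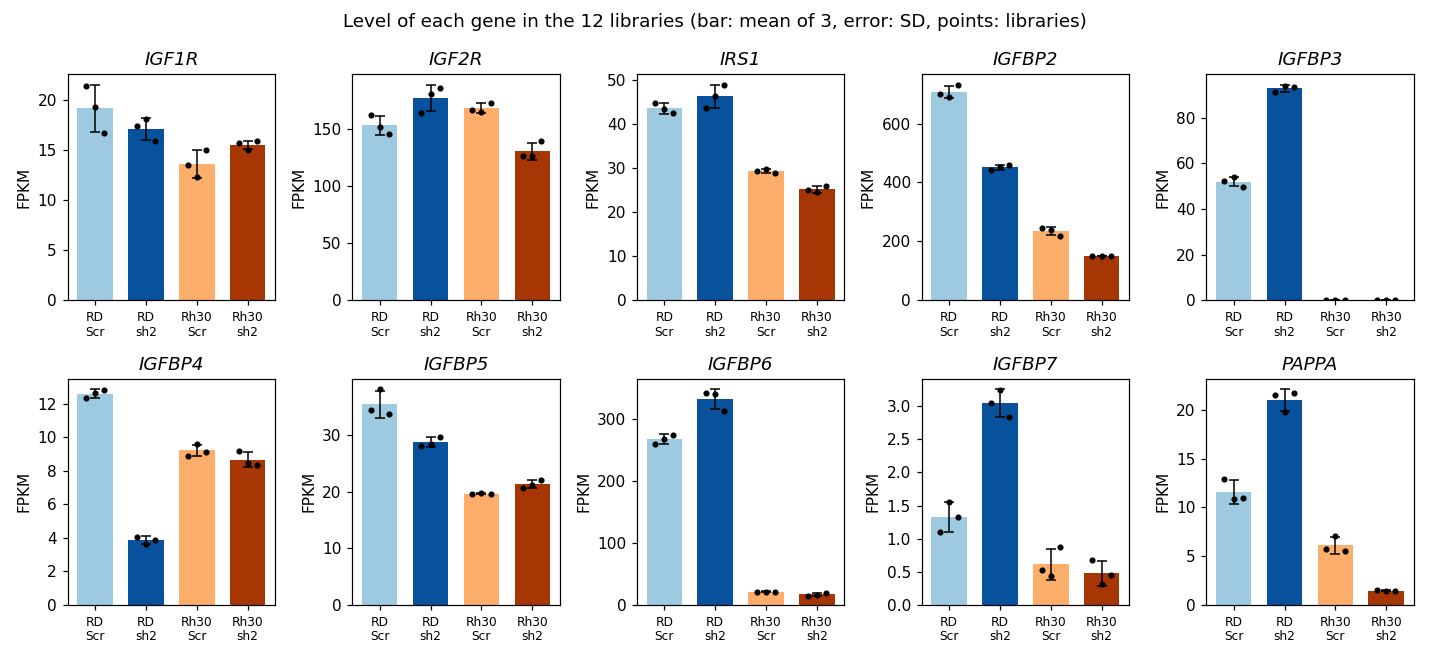
Level in FPKM (vertical axis, from 0, a separate scale for each gene) of the 10 genes in RD and Rh30 cells with Scramble (Scr) or KDM3A-sh2 (sh2). Bars are means of 3 libraries, error bars are SDs and points are libraries. IGFBP4 stands at 12.6 FPKM in RD Scramble and 3.87 with KDM3A-sh2, and PAPPA is highest in RD with KDM3A-sh2 and lowest in Rh30 with KDM3A-sh2.

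Of the receptors, IGF1R (chr15:98648539-98964530, GRCh38, as are all gene positions here) was called in neither line. Its FPKM were 21.4, 19.3 and 16.7 in RD Scramble and 17.4, 18.1 and 15.8 in RD KDM3A-sh2, and these groups overlapped. In Rh30 they were 13.5, 12.3 and 15.0 with Scramble and 15.6, 15.0 and 15.8 with KDM3A-sh2, groups that all but touched. Neither change passed the test: the log2 change was -0.15 (95% interval -0.38 to 0.08) in RD and 0.18 (95% interval -0.0045 to 0.37) in Rh30, so a moderate change in either line remains within the error.

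IGF2R (chr6:159969099-160113507), the clearance receptor of IGF2, was the more abundant receptor per length and moved in opposite directions in the 2 lines. In RD it was 162.0, 151.8 and 145.5 FPKM with Scramble and 164.0, 180.8 and 185.8 with KDM3A-sh2, a rise of 0.21 on the log2 scale (SE 0.06; limma adjusted p = 0.0319). That rise was small, and its adjusted p ran from 0.0132 to 0.0939 over the other settings and omitted libraries, passing the threshold in 7 of 14. In Rh30 it was 166.5, 164.6 and 172.7 FPKM with Scramble and 126.3, 125.8 and 138.9 with KDM3A-sh2. The Rh30 groups lay well apart, and the level fell by 0.36 on the log2 scale (SE 0.05; limma adjusted p = 0.00264). The change in Rh30 minus the change in RD was -0.57 (SE 0.08; limma adjusted p = 0.00048). The ratio of IGF2R to IGF1R, in FPKM, was 8.05 ± 0.585 in RD Scramble and 10.4 ± 1.18 in RD KDM3A-sh2, and 12.4 ± 0.937 and 8.41 ± 0.344 in Rh30 (mean ± SD, n = 3).

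IRS1 (chr2:226731317-226799759), the adaptor that couples IGF1R to PI3K, was 44.8, 43.6 and 42.4 FPKM in RD Scramble and 43.7, 46.3 and 48.9 in RD KDM3A-sh2, and the change of 0.08 (SE 0.05) did not pass the test. Rh30 cells had 29.3, 29.7 and 28.8 FPKM with Scramble and 25.1, 24.5 and 26.0 with KDM3A-sh2, without overlap, and fell by 0.21 on the log2 scale (SE 0.05; limma adjusted p = 0.0172). The call in Rh30 was lost when Scramble replicate 1, KDM3A-sh2 replicate 1 or KDM3A-sh2 replicate 2 was left out, with log2 changes of -0.21, -0.20 and -0.19. The lines differed in their change by -0.29 (SE 0.07; limma adjusted p = 0.00731).

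IGFBP2 (chr2:216632828-216664436) was the most abundant binding protein in each group and the only gene of the 10 called in the same direction in both lines. It was 700.7, 691.4 and 731.3 FPKM in RD Scramble and 441.5, 452.6 and 459.5 in RD KDM3A-sh2. In Rh30 the values were 245.4, 240.0 and 219.9 with Scramble and 152.0, 150.2 and 149.0 with KDM3A-sh2. All knockdown libraries lay below all control libraries of their line, and the Scramble mean was 1.57 times the KDM3A-sh2 mean in RD and 1.56 times in Rh30. The log2 changes were -0.65 (SE 0.03; limma adjusted p = 3.07e-05) and -0.64 (SE 0.05; limma adjusted p = 0.000305). Their difference was 0.01 with a 95% interval from -0.12 to 0.13, so any difference between the lines was small on this scale.

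IGFBP5 (chr2:216672105-216695525) lies 7669 bases from IGFBP2, on the opposite strand, and fell with it in RD but was not called in Rh30. It was 34.5, 38.1 and 33.7 FPKM in RD Scramble and 28.1, 28.4 and 29.7 in RD KDM3A-sh2, and fell by 0.29 on the log2 scale (SE 0.06; limma adjusted p = 0.00731). Its FPKM in Rh30 were 19.6, 19.8 and 19.5 with Scramble and 20.7, 21.3 and 22.1 with KDM3A-sh2. The Rh30 groups did not overlap, but the change of 0.11 (95% interval -0.0013 to 0.23) did not pass the test. The difference between the lines was 0.40 (SE 0.07; limma adjusted p = 0.00181). IGFBP2 over IGFBP5, in FPKM, stood at 20.1 ± 1.77 in RD Scramble, 15.7 ± 0.252 in RD KDM3A-sh2, 12.0 ± 0.639 in Rh30 Scramble and 7.05 ± 0.299 in Rh30 KDM3A-sh2 (mean ± SD, n = 3).

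IGFBP4 (chr17:40443461-40457731), the main substrate of PAPPA, had the largest tested change of the group, and it was seen in RD. Its FPKM were 12.4, 12.6 and 12.9 in RD Scramble and 4.07, 3.65 and 3.89 in RD KDM3A-sh2, so the control mean was 3.26 times that of the knockdown. The level fell by 1.48 on the log2 scale (SE 0.07; limma adjusted p = 2.37e-05). The Rh30 libraries held 8.91, 9.61 and 9.14 FPKM with Scramble and 9.20, 8.48 and 8.35 with KDM3A-sh2, which overlapped, and the log2 change was -0.08 (95% interval -0.24 to 0.08). The difference between the lines, 1.40 (SE 0.09), had a limma adjusted p of 1.58e-06.

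IGFBP4 was also the only gene of the 10 whose longest annotated 3′ UTR (GENCODE 29) held TGAAGCA, a word taken over from an earlier analysis of these data. The site lies at base 752 of a 3′ UTR of 1148 bases and is shown with its flanks, the word in capitals.
IGFBP4 site: aaaggaagactTGAAGCAcagagggctagg
The word occurs in 14.8% of 18816 genes. Among the genes tested that had a 3′ UTR, those with the word had a median log2 change of -0.052 in RD and -0.066 in Rh30. Those without it had 0.034 and 0.043. Because the word came from an analysis of these data, the medians are a description and not an independent test. Genes were not matched for 3′ UTR length. IGFBP4 did not change detectably in Rh30, and the part of the word in its change in RD was not tested.

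IGFBP3 (chr7:45912245-45921874), the main IGF carrier in serum, was present in RD and near 0 in Rh30. It was 52.3, 53.9 and 49.8 FPKM in RD Scramble and 91.1, 93.8 and 93.5 in RD KDM3A-sh2, which was 1.78 times higher. The rise was 0.82 on the log2 scale (SE 0.04; limma adjusted p = 2.89e-05). In Rh30 it was listed at 0 in the 3 Scramble libraries and at 0.174, 0.172 and 0.117 FPKM in the KDM3A-sh2 libraries, and no fold change was formed from these. The difference between the lines was -0.62 with a pseudocount of 1 but 0.50 with a pseudocount of 0.1, so its sign rests on how the Rh30 values near 0 are treated. The gene passed the filter on low values in that comparison only through RD, and the difference is given without a test.

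IGFBP6 (chr12:53097436-53102345), which prefers IGF2 over IGF1, was the second most abundant binding protein in RD. It was 258.2, 267.6 and 274.2 FPKM in RD Scramble and 341.2, 339.2 and 312.7 in RD KDM3A-sh2, a rise of 0.31 on the log2 scale (SE 0.04; limma adjusted p = 0.00175). Levels in Rh30 were 21.3, 21.2 and 20.3 FPKM with Scramble and 14.7, 16.3 and 19.5 with KDM3A-sh2. The Rh30 groups did not overlap, but KDM3A-sh2 replicate 3 lay close to the control, and the log2 change of -0.31 (SE 0.10; limma adjusted p = 0.0598) did not pass. Without that library it was -0.41 (limma adjusted p = 0.0137). Without Rh30 KDM3A-sh2 replicate 1 it was -0.22 (limma adjusted p = 0.142), and it did not pass when any other single Rh30 library was left out. The difference between the lines was -0.62 (SE 0.11; limma adjusted p = 0.00233).

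IGFBP7 (chr4:57030773-57110385), a related secreted protein that binds IGFs only weakly, was the least abundant of the group in RD. It was 1.11, 1.55 and 1.33 FPKM in RD Scramble and 3.05, 3.25 and 2.84 in RD KDM3A-sh2, and rose by 0.80 on the log2 scale (SE 0.12; limma adjusted p = 0.0024), which understates the change at so low a level. The ratio of the means was 2.30. In Rh30 it stayed under 1 FPKM in all 6 libraries, from 0.311 to 0.880, and was not tested. The difference between the lines was -0.93, in a comparison whose filter it passed only through RD, and is likewise given without a test.

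Beside the RD rises of IGFBP3, IGFBP6 and IGFBP7, the 3 fibroblast markers LUM, PDGFRA and DPT were summed in each library. The sum was 19.9 to 22.4 FPKM in RD Scramble and 67.2 to 77.3 in RD KDM3A-sh2, where LUM, a matrix proteoglycan, made up nearly all of it and PDGFRA was under 1 FPKM. DPT was listed at 0 in all 12 libraries. In Rh30 the sum was 6.35 to 8.09 and 10.4 to 11.5 FPKM. The muscle markers summed to 2542 to 2783 FPKM in RD Scramble and to 2995 to 3132 in RD KDM3A-sh2. The higher sum came from CHRNA1 (means of 1074 and 1436 FPKM) and DES (796.1 and 931.6), while MYOD1, MYOG, CDH15 and TNNT2 had lower means with KDM3A-sh2. The part of these markers, and of the lower depth with KDM3A-sh2, in the changes was not tested.

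**Figure D2:**
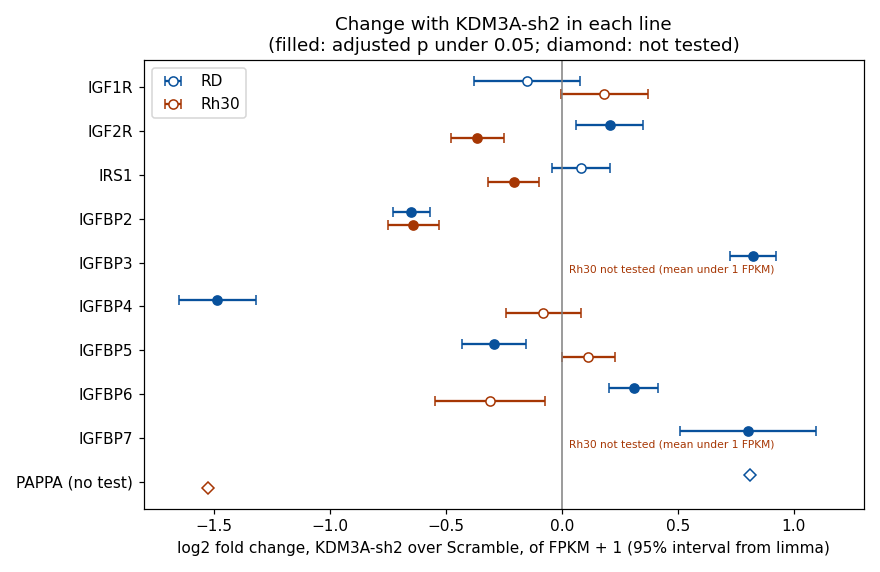
Log2 fold change of FPKM + 1, KDM3A-sh2 over Scramble (horizontal axis), for each gene in RD (blue) and Rh30 (brown), with 95% intervals from limma as bars. Filled circles passed an adjusted p of 0.05, open circles did not, and diamonds were not tested. The 2 intervals of IGFBP2 overlap (-0.65 and -0.64), whereas IGF2R (0.21 and -0.36) and PAPPA (0.81 and -1.52) lie on opposite sides of 0.

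Tested as an interaction, the change differed between the lines for 5 of the 7 genes that were expressed in both, against 27.8% of 18517 genes (14.4% higher in Rh30 and 13.4% lower). IGFBP3 and IGFBP7, under 1 FPKM in Rh30, and PAPPA are not in this count. The change in Rh30 minus that in RD was above 0 for IGFBP4 and IGFBP5 and below 0 for IGF2R, IGFBP6 and IRS1. IGFBP2 and IGF1R were not called. For IGF1R the difference of 0.33 (SE 0.13; limma adjusted p = 0.0822) passed the threshold without RD Scramble replicate 3 (0.42) or without Rh30 Scramble replicate 3 (0.40). The log2 change of KDM3A itself was -1.39 in RD and -1.02 in Rh30, a difference of 0.37 (SE 0.12; limma adjusted p = 0.0388). The lines are thus not compared at equal depletion of KDM3A, and the part of this in the differences was not tested.

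PAPPA (chr9:116153804-116402322) was 12.95, 10.8 and 10.9 FPKM in RD Scramble and 21.5, 19.8 and 21.7 in RD KDM3A-sh2. The Rh30 values were 5.72, 7.05 and 5.48 FPKM with Scramble and 1.52, 1.39 and 1.46 with KDM3A-sh2. From high to low the groups stood in the order RD KDM3A-sh2, RD Scramble, Rh30 Scramble and Rh30 KDM3A-sh2, and no neighbouring groups overlapped. With KDM3A-sh2 the mean was 1.82 times the control in RD, and in Rh30 the control mean was 4.18 times that of the knockdown. On the log2 scale with a pseudocount of 1 the changes were 0.81 and -1.52. Because PAPPA was picked for this contrast, these values carry no test.

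IGFBP4 over PAPPA, substrate over protease in FPKM, was 1.10 ± 0.125 in RD Scramble, 0.184 ± 0.00505 in RD KDM3A-sh2, 1.53 ± 0.155 in Rh30 Scramble and 5.96 ± 0.225 in Rh30 KDM3A-sh2 (mean ± SD, n = 3). The ratio thus went down in RD, where IGFBP4 fell and PAPPA was higher, and up in Rh30, where PAPPA was lower and IGFBP4 was called in neither direction. It is a ratio of transcripts, chosen in part by the levels of PAPPA, and is given without a test. Of the other PAPPA substrates, IGFBP2 fell in both lines and IGFBP5 fell in RD, as described above.

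PAPPA2, the paralog of PAPPA, was under 1 FPKM in all libraries, with means of 0.339 ± 0.0209 in RD Scramble and 0.911 ± 0.0361 in RD KDM3A-sh2. The stanniocalcins, secreted inhibitors of PAPPA, differed between the lines. STC1 was 19.9, 20.5 and 18.6 FPKM in RD Scramble and 13.4, 13.8 and 14.3 in RD KDM3A-sh2, and fell by 0.48 on the log2 scale (SE 0.06; limma adjusted p = 0.000929). In Rh30 it was at most 0.124 FPKM and was not tested. STC2 was 787.5, 827.0 and 832.4 FPKM in RD Scramble and 831.0, 874.9 and 768.3 in RD KDM3A-sh2, with a log2 change of 0.01 (95% interval -0.11 to 0.14). Rh30 cells had 298.7, 306.7 and 255.5 FPKM with Scramble and 173.8, 164.9 and 182.7 with KDM3A-sh2, and fell by 0.72 on the log2 scale (SE 0.08; limma adjusted p = 0.00113). STC2 and PAPPA were thus both lower in Rh30 KDM3A-sh2, and the change of STC2 differed between the lines by -0.73 (SE 0.10; limma adjusted p = 0.000337).

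The ligand IGF2 (chr11:2129112-2149603) was far more abundant than the 10 genes. It was 4636, 5395 and 5064 FPKM in RD Scramble and 3087, 3104 and 3019 in RD KDM3A-sh2. Rh30 cells had 2181, 2411 and 2098 FPKM with Scramble and 1201, 1194 and 1279 with KDM3A-sh2. The log2 changes were -0.71 in RD (SE 0.06; limma adjusted p = 0.000136) and -0.86 in Rh30 (SE 0.06; limma adjusted p = 0.000217), and the difference of -0.15 (95% interval -0.34 to 0.04) was not called. IGF1 was at most 0.426 FPKM in any library.

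IGF2 and IGFBP2 both fell in both lines, and their ratio moved less than either level. IGF2 over IGFBP2, in FPKM, stood at 7.11 ± 0.616 in RD Scramble and 6.81 ± 0.216 in RD KDM3A-sh2, and the libraries of these groups overlapped. In Rh30 it was 9.49 ± 0.579 with Scramble and 8.14 ± 0.380 with KDM3A-sh2 (mean ± SD, n = 3), with no overlap. The summed FPKM of IGFBP2 to IGFBP7 was 1076 ± 23.9 in RD Scramble and 910.7 ± 9.43 in RD KDM3A-sh2, and 285.5 ± 13.8 and 197.9 ± 1.5 in Rh30. The makeup of that sum changed in RD, where IGFBP2 made up 65.8% ± 0.763 with Scramble and 49.6% ± 1.23 with KDM3A-sh2. The share of IGFBP6 went from 24.8% ± 0.377 to 36.3% ± 1.5 and that of IGFBP3 from 4.84% ± 0.288 to 10.2% ± 0.172. In Rh30 IGFBP2 made up 82.3% ± 0.739 and 76.0% ± 1.20 of the sum. IGF2 per summed binding protein was 4.68 ± 0.352 and 3.37 ± 0.0250 in RD and 7.81 ± 0.454 and 6.19 ± 0.192 in Rh30. These ratios are of transcripts and were not tested.

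**Figure D3:**
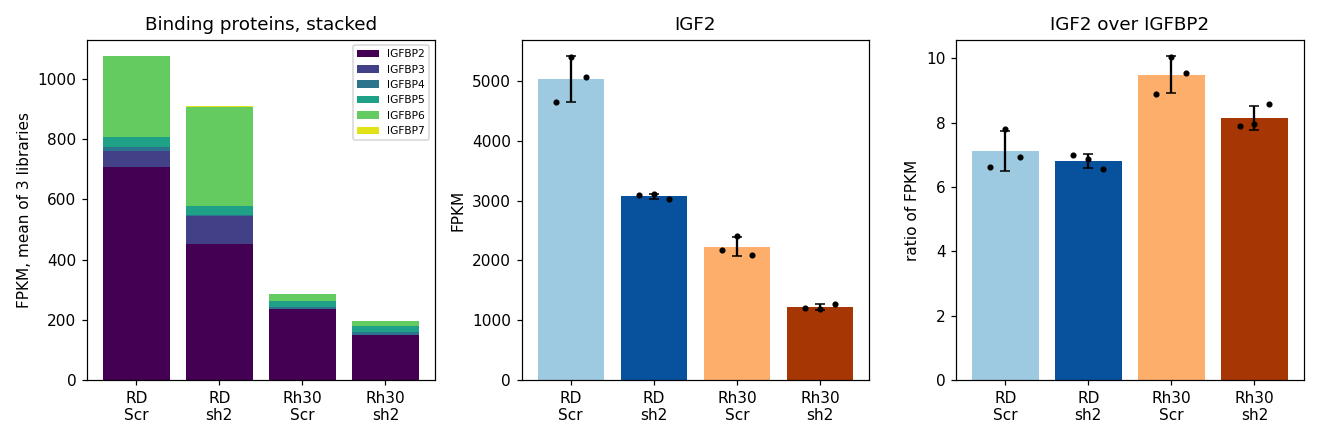
Left, FPKM of IGFBP2 to IGFBP7 stacked, as means of 3 libraries; middle, FPKM of IGF2; right, the ratio of IGF2 to IGFBP2. In the middle and right panels bars are means, error bars SDs and points libraries. IGF2 drops in both lines, to 3070 from 5032 FPKM in RD and to 1225 from 2230 FPKM in Rh30, while its mean ratio to IGFBP2 lies between 6.81 and 9.49 in all groups.

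Between the control groups, RD Scramble had the higher level of 6 of the 7 genes that could be compared and were expressed in both lines. IGFBP6 stood 12.7 times higher in RD, with a log2 difference (Rh30 minus RD) of -3.61 (SE 0.04; limma adjusted p = 6.07e-09). IGFBP2 was 3.01 times higher in RD, with a log2 difference of -1.59 (SE 0.05; limma adjusted p = 2.31e-07). IGFBP5 (-0.82), IRS1 (-0.56), IGF1R (-0.46) and IGFBP4 (-0.41) were lower in Rh30 by smaller margins, and IGF2R (0.13) was slightly higher there, a call that was lost in 9 of 13 alternatives. All 7 were called and had no overlap, where 74.5% of 18352 genes were called (35.0% higher in Rh30 and 39.6% lower) and 77.5% had none. IGF2 was 2.26 times higher in RD Scramble.

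Of 50 other genes of the IGF pathway, 43 were tested in RD, of which 11 rose and 10 fell (48.8%, against 41.1% of all genes). In Rh30 40 were tested, of which 4 rose and 10 fell (35.0%, against 28.4%). The median log2 change of the list was 0.0043 in RD and -0.096 in Rh30, beside 0.0067 and 0.031 over all genes tested. The change differed between the lines for 17 of 42 (40.5%, against 27.8% of all genes). These 17 include STC1 and ADAM12, which were under 1 FPKM in Rh30. They passed the filter on low values only through RD, so their calls are not read as differences between the lines. Of the 21 genes of PI3K, AKT, FOXO and mTOR signaling, 6 rose and 4 fell in RD, and 2 rose and 2 fell in Rh30.

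By the size of their change, IGF2, the IGFBP-cleaving protease ADAMTS1 and PIK3R2, a regulatory subunit of PI3K, led the called pathway genes in RD. ADAMTS1 went from 156.8 ± 7.25 to 103.5 ± 7.19 FPKM (log2 change -0.60; limma adjusted p = 0.000373) and PIK3R2 from 31.6 ± 1.55 to 46.6 ± 1.83 FPKM (log2 change 0.55; limma adjusted p = 0.000344). In Rh30 IGF2, STC2 and ADAMTS1 led, the last with a change from 301.9 ± 11.6 to 189.6 ± 6.04 FPKM (log2 change -0.67; limma adjusted p = 0.00019). INSR, the insulin receptor, and IRS2 were called in neither line. INSR was 2.62 ± 0.534 and 2.11 ± 0.644 FPKM in RD and 8.57 ± 0.376 and 8.07 ± 1.76 in Rh30, and IRS2 ran from 1.69 to 3.18 FPKM over all libraries. IGFBP1 was listed at 0 in Rh30 and at most 0.618 FPKM in RD.

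The IGF2 mRNA-binding proteins, which bind IGF2 and other transcripts, were looked at after their values were seen. IGF2BP1 (log2 change -0.46 in RD and -0.35 in Rh30) and IGF2BP2 (-0.50 and -0.62) fell in both lines, with limma adjusted p of at most 0.00117. IGF2BP3 rose in RD (0.29; limma adjusted p = 0.00464) and was not called in Rh30 (-0.14), and its change differed between the lines by -0.44 (limma adjusted p = 0.00339).

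The genes whose profile over the 12 libraries was most like that of PAPPA were sought among 18516 genes, by the root mean square difference of log2(FPKM + 1) after each gene was centred on its mean. TAGLN was nearest (0.156), followed by MAP3K7CL (0.168), C10orf54 (0.261), SPRY4 (0.264) and HBEGF (0.273). TAGLN is an actin-binding protein of contractile cells, SPRY4 is an inhibitor of receptor tyrosine kinase signaling and HBEGF is a ligand of the EGF receptor. TAGLN stood at 36.4 and 68.6 FPKM in RD Scramble and RD KDM3A-sh2, and at 16.9 and 5.44 FPKM in the same groups of Rh30. SPRY4 was at 56.3, 89.4, 25.1 and 13.4 FPKM and HBEGF at 21.6, 50.2, 10.7 and 5.33 FPKM in that order. They were found by searching for this pattern in the same libraries, so the likeness is a description.

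**Figure D4:**
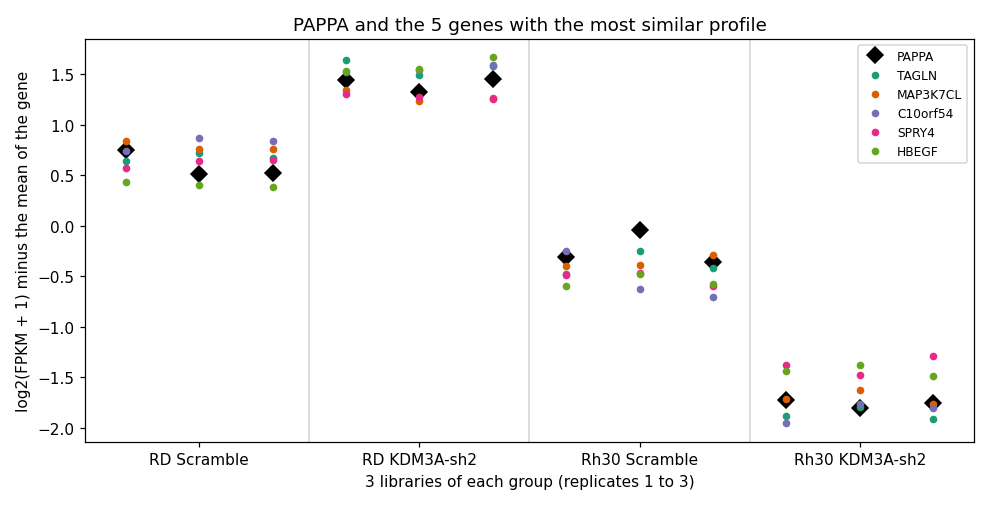
Log2(FPKM + 1) minus the mean of the gene over the 12 libraries (vertical axis) for PAPPA (black diamonds) and the 5 genes with the smallest root mean square difference from it (circles), with the 3 libraries of each group side by side. In all 6 genes the RD KDM3A-sh2 libraries are highest and the Rh30 KDM3A-sh2 libraries lowest.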

How the data were processed

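RNA-seq covered 12 libraries in triplicate, grouped by the sample labels into RD and Rh30 cells with control shRNA or KDM3A shRNA. The authors' methods name these shRNAs Scramble and KDM3A-sh2. Per the submitters' processing notes, the tools were GSNAP, SAMtools and Cufflinks on GRCh38; the authors deposited FPKM without a log, and the strand setting of the counting is not given in the sources used here. The table has 66095 entries. Of repeated identifiers the entry of highest mean was used, and 17 identifiers with a placeholder value were left out. Reads per library are not known from FPKM, and the steps between low values gave relative depth only.

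Models were fitted in R 4.3.3 by limma 3.58.1 (lmFit and trended eBayes). The scale was log2(FPKM + 1), and a gene entered when its mean over the libraries compared reached 1 FPKM. Tests were two-sided, with Benjamini-Hochberg adjustment over all genes tested and a threshold of 0.05. The authors compared FPKM by ANOVA, which was run as an alternative. The difference between lines was the interaction over 12 libraries. The model was tested on simulated data. Tables and figures were made with Python 3.11.15, pandas 2.3.3, NumPy 2.4.6 and matplotlib 3.10.9. Gene positions and 3′ UTRs came from GENCODE 29, which holds 86.3% of the identifiers, and promoters from RefSeq.

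The 10 genes, the 50 pathway genes and the markers were chosen with earlier results of these data known. Named beside the 10 were KDM3A, the pathway genes IGF1, IGF2, INSR, IRS2, IGFBP1, STC1, STC2 and PAPPA2, in each line the 3 called pathway genes that changed most, and the 5 genes most like PAPPA. IGF2BP1, IGF2BP2, IGF2BP3 and ADAM12, of the pathway list, were named after their values were seen, and so were CHRNA1, DES, LUM and the other single markers. Alternatives were a pseudocount of 0.1, no filter, at least 10 FPKM in 1 library, values rescaled as TPM or by the median, ANOVA, no trend, all 12 libraries in 1 fit, a further 1.5-fold requirement, a replicate block and each library left out.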

Additional observations from a re-analysis of the deposited data

Results flagged for a closer look

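The change upon KDM3A depletion differed between RD and Rh30 in 5 of the 7 genes expressed in both lines, by the interaction term of limma, which called 27.8% of 18517 genes. The change in Rh30 minus that in RD was -0.57 on the log2 scale for IGF2R (limma adjusted p = 0.00048), 1.40 for IGFBP4 (1.58e-06), 0.40 for IGFBP5 (0.00181), -0.62 for IGFBP6 (0.00233) and -0.29 for IRS1 (0.00731). For IGFBP3 (-0.62) and IGFBP7 (-0.93) the levels in Rh30 were under 1 FPKM and the filter was passed only through RD, so neither is counted as a call, and the value for IGFBP3 turned to 0.50 with a pseudocount of 0.1. IGF2R and IGFBP6 moved in opposite directions in the lines, with the Rh30 change of IGFBP6 short of the threshold. KDM3A itself was called in the interaction (0.37; limma adjusted p = 0.0388), with the deeper fall in RD.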

How the results depend on the processing

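A further requirement of a 1.5-fold change left 4 of 7 called genes in RD and 1 of 3 in Rh30. It left 4 of 7 in the difference between lines and 4 of 8 in the control comparison. Here and below, counts for the difference include IGFBP3 and IGFBP7, and its pathway counts include STC1 and ADAM12 where called. Counts for the controls include IGFBP3. All of these genes passed the filter on low values only through RD, so their calls are not read as differences between the lines. Of the genes left in the difference, only IGFBP4 and IGFBP6 were expressed in both lines. In the control comparison these were IGFBP2, IGFBP5 and IGFBP6. Over all genes the requirement left 1772 of 7389 called genes in RD and 1119 of 5061 in Rh30. For the difference it left 1783 of 5151, and between the controls 8763 of 13678. With each library left out in turn, the genes called numbered 6 to 7 in RD, 2 to 4 in Rh30, 7 to 8 for the difference and 7 to 8 between the controls, and the pathway genes 19 to 22, 11 to 13 and 14 to 18. The called share of all genes was then 33.2% to 35.3% in RD and 18.1% to 22.8% in Rh30. It was 23.7% to 25.7% for the difference and 70.4% to 72.1% between the controls. Over all genes, 5061 were called in Rh30 and 3214 without Rh30 KDM3A-sh2 replicate 1. The difference between lines called 2665 genes higher and 2486 lower, and 2059 and 3017 with values rescaled as TPM.

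The difference for IGFBP2, 0.01 and not called, became -0.051 as TPM and -0.013 with median scaling, and ran from -0.038 to 0.040 with each library left out; it was below 0 without Rh30 Scramble replicate 3 (-0.038), RD Scramble replicate 3 (-0.015) or RD KDM3A-sh2 replicate 1 (-0.0068). That for IGFBP3 was 0.50 with a pseudocount of 0.1, a setting under which PAPPA changed by -1.98 in Rh30 and differed between lines by -2.84. IGFBP6 in Rh30 passed the threshold with the 10 FPKM filter, with median scaling, with all 12 libraries in 1 fit and without Rh30 KDM3A-sh2 replicate 3, and IGF1R in Rh30 without Rh30 Scramble replicate 3. The cause was not tested. IGFBP7 in RD and in the difference, and IGFBP4 and PAPPA in Rh30, gave no value under the 10 FPKM filter.

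Same-numbered libraries of a line did not deviate together (correlations of -0.074 to -0.0093 in RD and -0.055 to -0.026 in Rh30), so the numbers do not pair them. With a replicate block the genes called were 6 in RD, 2 in Rh30, 7 for the difference and 7 between the controls, and the pathway genes 18, 11 and 14, beside 34.7%, 19.2%, 21.6% and 73.8% of all genes. The block lost the calls of IGF2R in RD and between the controls and of IRS1 in Rh30 (adjusted p = 0.0656). Read counts were not used, so the counting error behind values near 0 is unknown.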
